A study of Mus musculus with 2 samples.

Results

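The chemokine receptor genes of mouse chromosome 9 were examined for open chromatin in blood neutrophils: Ccr1, Ccr1l1, Ccr3, Ccr2, Ccrl2, Ccr9, Cxcr6 and Xcr1. These 8 of 21911 protein-coding genes were chosen by their family and chromosome and by earlier counts of promoter and distal regions in these same lists, so those counts are given as a description without a test. A promoter region of a gene overlapped the 2 kb centred on one of its annotated start sites. A distal region had its summit over 1 kb from the start sites of all genes, and no farther than 50 kb from the 5'-most start of the receptor gene. Open chromatin was measured by ATAC-seq, where a transposase tags accessible DNA. The 1 group held 2 libraries, biological replicates 1 and 2, each from 50000 neutrophils of peripheral blood of adult C57BL/6J mice at 5 to 6 weeks of age, with no treatment named. The labels name no sorting step, and they give both replicates 1 donor record, so their spread may be technical.

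Chemokine receptors are G protein-coupled receptors that steer leukocytes along gradients of small secreted proteins. On binding a chemokine they release inhibitory G proteins, which drive actin assembly and integrin activation, and kinases and arrestins then shut them off. Neutrophils of the blood are known mainly for CXC receptors, and among the CC receptors Ccr1 is the one best known on mouse neutrophils. The other genes are known from other cells: Ccr2 from inflammatory monocytes, Ccr3 from eosinophils, Ccr9 from gut-homing T cells, Cxcr6 from tissue-resident T and NKT cells, and Xcr1 from cross-presenting dendritic cells. Ccrl2 is an atypical receptor that binds chemerin and is raised on activated neutrophils.

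On the mm10 build the genes did not form a single block. Ccr9, Cxcr6, Xcr1, Ccr1, Ccr1l1, Ccr3 and Ccr2 followed each other over 424 kb, measured from the 5'-most start of Ccr9 to that of Ccr2. Ccrl2 lay 12.6 Mb away from Ccr9 on the same chromosome. The starts of Ccr1 and Ccr1l1 were 9.72 kb apart, so these genes shared most of their distal windows, and regions are counted once in totals.

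Replicate 1 had 27709 merged open regions and replicate 2 had 14548 in the lists thresholded by the irreproducible discovery rate (IDR), a measure of how repeatably a peak ranks. No read counts were used, so the depth of the libraries is unknown. Of 10 neutrophil marker promoters, 9 were open in replicate 1 and 3 in both replicates (S100a9, Il1r2 and Trem1), and Ly6g had no promoter region. Over all protein-coding genes 47.1% were open in replicate 1 and 39.8% in both. The neutrophil list stood above that share in replicate 1 and below it in both. Less strict peak lists of the replicates had 8 of 10 neutrophil and 8 of 8 B cell promoters open in both. The share of all genes there was 49.8%. A list made from both replicates at a conservative IDR threshold held 8 of 10 and 7 of 8, beside 46.7% of all genes. In the IDR lists, 7 of 8 B cell markers were open in replicate 1 and 5 in both, above the 47.1% and 39.8% of all genes. Their signal values were 5.98 to 23.7 in replicate 1, with a mean of 12.1. The open neutrophil markers had lower values there, 4.76 to 12.9, with a mean of 8.47. For dendritic cells 3 of 8 (37.5%) were open in replicate 1 and in both, below those shares of all genes. In both replicates 1 of 8 monocyte and macrophage markers was open, and 0 of 10 eosinophil and basophil, 0 of 8 T cell, 0 of 8 NK cell and 0 of 8 erythroid markers. In replicate 1 the T cell list had 1, the NK cell list 2 and the eosinophil and basophil list 2. Regions of the receptor genes may come from any of the cells present, and the part of non-neutrophil cells in them was not tested. In such bulk libraries, fewer cells with an open site and less signal per cell cannot be told apart.

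The sequences below are the ones on which the results turn: the start of Ccr1, the region beyond Ccr1l1 that was the strongest distal region of the set, and 2 distal regions of Ccr1. All are read from the GRCm38 reference on the minus strand, the strand of Ccr1, from 5′ to 3′. The window at the Ccr1 start ends at the last base before the transcript, and the others reach 100 bases to either side of the summit in replicate 1. Capitals mark matches on either strand to any of the 9 motif strings that are named further on, and windows with no capitals hold none of them.
Ccr1 promoter (chr9:123968693-123968880): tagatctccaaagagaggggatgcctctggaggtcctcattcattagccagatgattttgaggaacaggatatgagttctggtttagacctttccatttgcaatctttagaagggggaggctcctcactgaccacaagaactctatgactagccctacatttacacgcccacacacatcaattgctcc
Region upstream of Ccr1l1 (chr9:123986223-123986423): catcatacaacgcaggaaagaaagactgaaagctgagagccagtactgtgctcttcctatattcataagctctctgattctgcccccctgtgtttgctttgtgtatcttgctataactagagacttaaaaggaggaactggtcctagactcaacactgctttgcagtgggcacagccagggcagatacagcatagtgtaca
Region in the Ccr1 intron (chr9:123964886-123965086): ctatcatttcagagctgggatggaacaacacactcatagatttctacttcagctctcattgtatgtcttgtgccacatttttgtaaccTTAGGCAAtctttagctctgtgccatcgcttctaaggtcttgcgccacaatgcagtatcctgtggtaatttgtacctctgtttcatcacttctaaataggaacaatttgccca
Region downstream of Ccr1 with the highest −log10 p (chr9:123928114-123928314): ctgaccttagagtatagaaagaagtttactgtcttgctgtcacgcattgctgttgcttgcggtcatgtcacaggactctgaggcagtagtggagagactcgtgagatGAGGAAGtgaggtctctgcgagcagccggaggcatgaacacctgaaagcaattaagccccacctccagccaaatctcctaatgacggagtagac

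Ccr1, the receptor for Ccl3, Ccl5, Ccl6 and Ccl9, was the single gene of the set with an open promoter in the IDR lists. The signal value, the authors' own score for a peak, was 12.99 in replicate 1 and 13.35 in replicate 2, with a mean of 13.2 ± 0.258 (SD, n = 2). The replicates gave nearly the same value, and their summits lay 18 bp and 33 bp from the start site, 15 bp apart. The region spanned chr9:123968379-123968896 and covered the start site of the gene. Among the protein-coding genes with an open promoter, this was a middling value, higher than 54.8% of them in replicate 1 and 45.0% in replicate 2. The list made from both replicates at the conservative IDR threshold gave 14.2, and there too Ccr1 was the 1 open gene of the 8, beside 46.7% of all protein-coding genes.

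The other 7 genes had no promoter region in either IDR list, as did 52.4% of all protein-coding genes. Of these, 5 had none in the less strict lists either, as did 45.1% of all genes. Thus 1 of 8 was open in both replicates, or 12.5% (95% Wilson interval 2.24 to 47.1), beside 39.8% of all protein-coding genes. The interval covers counting error alone, and with genes chosen by earlier counts in these lists it is no test against that share. Their promoters were mostly poor in CpG: 7 of the 8 genes missed the CpG-rich class, all but Ccr9, and of the 12187 protein-coding genes outside that class 18.2% were open in both replicates. The ratio of observed to expected CpG was 0.0638 at Ccr1, the lowest of the 8, and 0.927 at Ccr9, the highest. The ratio was taken at the 5'-most GENCODE start. That start lay 88772 bp from the RefSeq start for Ccr9, 8307 bp for Ccr1l1 and 4147 bp for Ccr3. The RefSeq starts of these genes were not assessed.

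**Figure D1:**
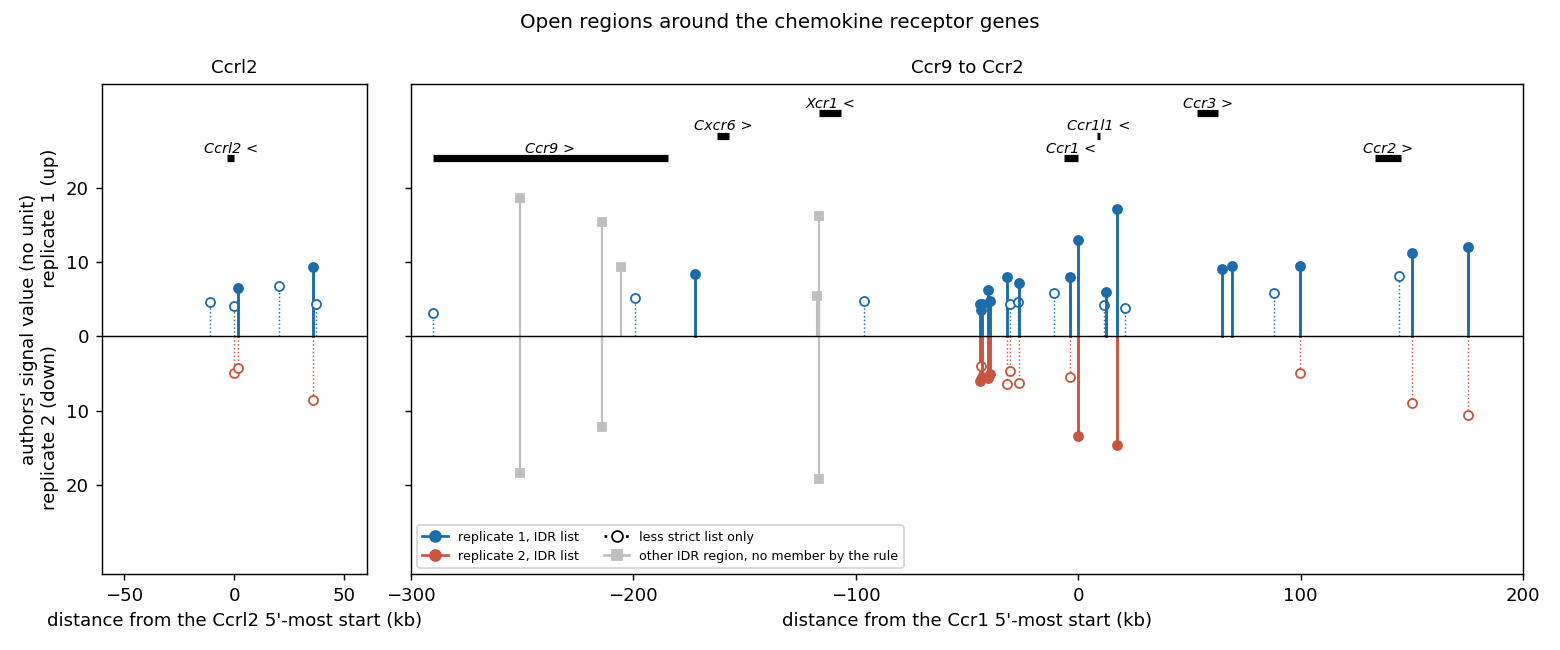
Open regions around the receptor genes, with the distance along the chromosome from the 5'-most start of Ccrl2 (left) or Ccr1 (right) in kb on the x axis and the authors' signal value on the y axis, upward for replicate 1 and downward for replicate 2. Filled points are regions of the receptor genes in the IDR lists, open points those listed solely in the less strict lists, grey squares regions assigned to no receptor gene, and black bars the genes with their direction. The Ccr1 promoter (12.99 and 13.35) and the region beyond Ccr1l1 (17.2 and 14.6) stand highest in both replicates among the regions of these genes.

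Ccr1l1, a close relative of Ccr1 with a less studied product, had no promoter region by its GENCODE M21 start, yet the strongest distal region of the set lay upstream of it. That region, at chr9:123986141-123986479, reached 17.2 in replicate 1 and 14.6 in replicate 2. These values were higher than 92.7% of all regions in replicate 1 and 71.9% in replicate 2, and higher than 96.0% of the distal regions of replicate 1. The summits of the replicates were 8 bp apart. The GENCODE model of Ccr1l1 starts at position 123978408, whereas the RefSeq model of the same build starts 8307 bp farther upstream, at 123986715. The summit was 7915 bp from the GENCODE start and 392 bp from the RefSeq start, inside the first RefSeq intron. With RefSeq start sites, an alternative chosen after the data were examined, Ccr1l1 was therefore open in both replicates and 2 of the 8 genes were open, beside 39.2% of protein-coding genes in RefSeq. The 300-base RefSeq promoters of Ccr1 and Ccr1l1 shared 53.8% of 353 aligned positions. This was little above the other pairs aligned: 48.9% for Ccr1 and Ccr3, 49.0% for Ccr1 and Ccr2, and 47.9% for Ccr1l1 and Ccr3. The Ccr1l1 promoter aligned here did not overlap the open region as called in replicate 1. Neither the Ccr1 promoter region nor the region upstream of Ccr1l1 had another copy in the assembled chromosomes at 95% identity over 50% of its length.

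Ccrl2, the chemerin-binding receptor, had weak promoter peaks that stayed outside the IDR lists. In the less strict lists, made from pseudoreplicates of each library, its promoter had 4.07 in replicate 1 and 4.88 in replicate 2, at chr9:111057133-111057666 in replicate 1. Its best promoter peak had an IDR of 0.389 in replicate 1 and 0.437 in replicate 2, far from the threshold of 0.05. In the ranked list of both replicates together it had 0.169, also outside the threshold. The weak Ccr9 promoter peak of replicate 1 had the same 0.389, so this value is not particular to Ccrl2. Both replicates thus placed a weak peak at the same start. With the less strict lists 2 of the 8 genes, Ccr1 and Ccrl2, were open in both replicates, beside 49.8% of all protein-coding genes. A further region 1840 bp upstream of Ccrl2 was in the IDR list of replicate 1 (6.55) and in the less strict list of replicate 2 (4.28).

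Ccr3 and Ccr2, the eotaxin and the monocyte chemoattractant receptor genes, had no promoter region in any list of a replicate. In the IDR lists, the nearest summit of replicate 1 was 11546 bp from the Ccr3 start and 13060 bp from a Ccr2 start. In replicate 2 these distances were 35657 bp and 115635 bp. No peak of the ranked lists, which keep peaks far past the IDR threshold, fell in the promoter windows of Ccr3, Ccr2, Ccr1l1, Cxcr6 or Xcr1.

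Cxcr6, the receptor of Cxcl16, and Xcr1, the receptor of Xcl1, were likewise without promoter regions. Cxcr6 had a single distal region, in replicate 1, with 8.40 as its signal value and a summit 10119 bp upstream; 51.3% of genes had at least 1. Xcr1 had none in either IDR list and a single one of 4.76 in the less strict list of replicate 1. The nearest region to Xcr1, 10014 bp away, had 16.2 in replicate 1 and 19.2 in replicate 2 and lay at the start of the neighbouring gene Fyco1.

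Ccr9, the receptor of Ccl25, had no distal region in the IDR lists under the GENCODE start sites and gained some with RefSeq. GENCODE gives it 6 start sites, the first of them 88.7 kb upstream of the next, and the 50 kb window is centred on that first site. A peak of 3.17 stood there in the less strict list of replicate 1 and none in replicate 2. Its summit was 247 bp from the Ccr9 start and 96 bp from the annotated start of another gene. RefSeq starts the gene at 123767211, and around that site there were 3 distal regions in replicate 1 and 1 in replicate 2. The one in both replicates, chr9:123754362-123754819, lay 12637 bp upstream of a Ccr9 start, with signal values of 15.4 and 12.2.

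In the IDR lists, distal regions were concentrated around Ccr1, mostly through regions of lower signal value. Replicate 1 had 10 distal regions there and replicate 2 had 5, a mean of 7.5 ± 3.54 (SD, n = 2). At least as many were found around 0.0958% of all protein-coding genes in replicate 1 and 0.415% in replicate 2. Among peaks at or above the median signal value, Ccr1 did not lead in replicate 1. There Ccr1 had 1 in replicate 1 and 1 in replicate 2, Ccr3 had 4 and 1, and Ccr2 had 3 and 0. With RefSeq start sites and the full IDR lists, Ccr1 had 6 and 2, numbers reached by 2.95% and 10.8% of genes in RefSeq. With the same start sites Ccr1l1 had 5 and 0, Ccr2 had 4 and 0, Ccr3 had 3 and 0, and Ccr9 had 3 and 1. With GENCODE start sites Ccr1l1 had 6 and 2, numbers reached by 2.44% and 10% of genes, and Ccr3 had 5 and 1, reached by 4.9% and 27.8%. Ccr2 had 3 in replicate 1, reached by 17% of genes, and Ccrl2 had 2, reached by 30.2%, with 0 in replicate 2 for both. In replicate 2, Ccr1 alone had at least 3, as did 3.8% of genes, and none of the 8 had at least 6, as did 0.0776%. With GENCODE start sites Ccr1, Ccr1l1 and Ccr3 had at least 1 in both replicates, as did 27.7% of genes. For Ccr3 the 1 of replicate 2 was the region beyond Ccr1l1, a promoter region of Ccr1l1 with RefSeq. With RefSeq start sites, Ccr1 and Ccr9 alone had at least 1 in both. The mean per protein-coding gene was 1.17 in replicate 1 and 0.433 in replicate 2. The windows of Ccr1, Ccr1l1 and Ccr3 overlap, so these counts are not separate observations.

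**Figure D2:**
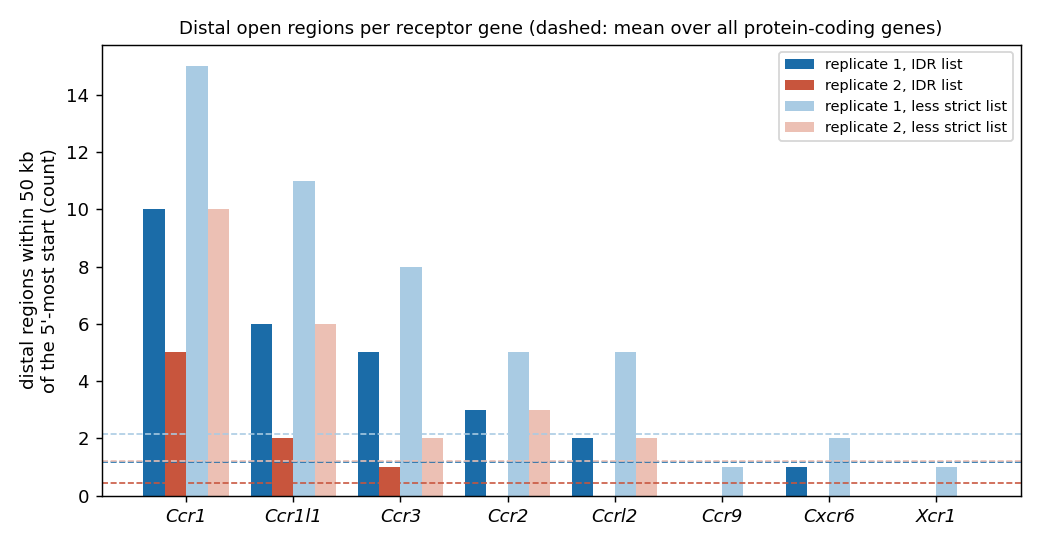
Number of distal regions (y axis) of each receptor gene (x axis), for both replicates in the IDR lists and in the less strict lists, with dashed lines at the mean over all protein-coding genes in the same list. Ccr1 has the highest bars in all 4 lists, from 5 to 15 regions, and Ccr9, Cxcr6 and Xcr1 have at most 2.

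Counted once, the 8 genes had 18 distal regions in replicate 1 and 5 in replicate 2, a mean of 11.5 ± 9.19 (SD, n = 2). The 5 regions of replicate 2 all overlapped regions of replicate 1, with summits 4 to 27 bp apart. Of the 18 regions, 27.8% were thus in both replicates (95% Wilson interval 12.5 to 50.9, counting error alone), beside 35.0% of all 15565 distal regions of replicate 1. Of the 13 found in replicate 1 alone, 9 had a counterpart among the less strict peaks of replicate 2 and 4 did not. The list of both replicates at the conservative threshold held 14 of the 18. The same shares over all distal regions of replicate 1 are not given here, so these counts do not set this locus apart. Closest to the threshold in replicate 1 were the region 2647 bp upstream of Ccr1l1, inside it with an IDR of 0.0385, and one 10734 bp downstream of the Ccr1 start, outside it with 0.102. In replicate 2 they were one 44.4 kb downstream of the Ccr1 start, inside with 0.0210, and the one 13060 bp downstream of a Ccr2 start, outside with 0.0585.

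The distal regions were mostly below the usual signal value and near the usual width. Their median width was 296 bp (range 226 to 586 bp), beside 310 bp for all distal regions of replicate 1, and 15 of 18 summits were intergenic in GENCODE and 3 intronic. The median signal value in replicate 1 was 8.02, below the 9.38 of all distal regions, and 5 of 18 exceeded that median. None was made up of repeats for more than 50% of its bases, and 2 had a copy elsewhere in the genome by the criterion above. Within the Ccr1 gene, 3706 bp from its start, an intronic region had 8.03 in replicate 1 and, in the less strict list, 5.49 in replicate 2. The 5 regions on the side of Ccr3 and Ccr2 had 9.07 to 12.04 in replicate 1. None of these was in the IDR list of replicate 2, and 3 were in its less strict list. The highest of them, 12.04, lay 38234 bp downstream of a Ccr2 start.

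Of the 10 distal regions of Ccr1, 5 formed a stretch of 5092 bp, 39.5 to 44.4 kb downstream of its start. Their signal values in replicate 1 were 4.31, 3.55, 4.33, 6.30 and 4.82, in the order of their positions. Replicate 2 had 5.99, 5.49, 5.63 and 5.01 for all but the second of them, which had 3.97 in its less strict list. Thus 4 of the 5 regions that all 8 genes had in both IDR lists lay in this stretch. The first 3 were rich in G and C (56.5%, 72.0% and 66.2%) and lay 850 bp, 274 bp and 282 bp from a RefSeq start, that of the noncoding gene Gm51701, so they counted as promoter regions of that gene with RefSeq and as distal ones with GENCODE. The third had a copy elsewhere in the genome.

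The stretch had low signal values for its significance. The region at chr9:123928066-123928382 had a −log10 p of 60.2 in replicate 1, higher than 83.0% of distal regions, while its signal value of 6.30 was higher than 10.1% of them. The ratio of −log10 p to signal value was higher than in 81.5% to 99.7% of distal regions across the 5. The region beyond Ccr1l1, for comparison, had 78.7 and 17.2. Without the stretch, a count added after the data were examined, Ccr1 had 5 distal regions in replicate 1 and 1 in replicate 2, numbers reached by 4.9% and 27.8% of genes.

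**Figure D3:**
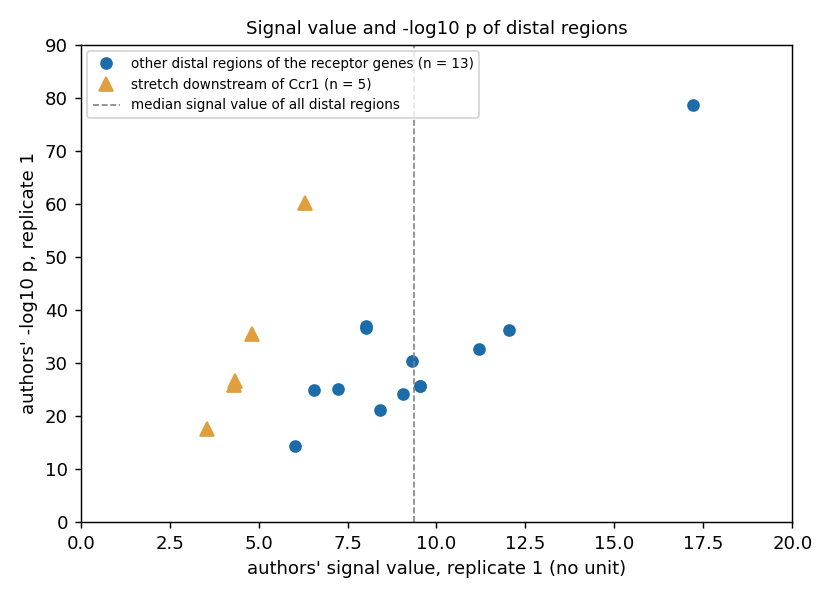
The authors' signal value (x axis) against their −log10 p (y axis) for the 18 distal regions of replicate 1, with triangles for the 5 of the stretch downstream of Ccr1 and a dashed line at the median signal value of all distal regions, 9.38. The triangles lie to the left, at signal values of 3.55 to 6.30 and −log10 p of 17.6 to 60.2, and the point at the top right is the region beyond Ccr1l1.

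The 101 bases around each summit were scanned on either strand for 9 strings that factors of blood cells are known to bind. Of the 18 distal regions of replicate 1, 10 held none. The PU.1-type ETS string GAGGAAG was in 4 of the 18, beside 15.6% of all distal regions. PU.1 is a master factor of myeloid and B cells. The C/EBP string TTGCNNAA, of the factors that drive granulocyte genes, was in 4, beside 6.39%. The RUNX string TGTGGTT was in 3, beside 6.15%. The AP-1 string TGANTCA was in 2, beside 6.69%, and the CTCF core string in 1, beside 16.7%. The general ETS string CCGGAAG was in 0, beside 1.88%, and it shares its last bases with the PU.1-type string. The GATA string AGATAA was in 0 as well, beside 2.51%, as were the NF-kB (0.251%) and ISRE (1.91%) strings. With so few regions these counts describe this locus and no more.

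At the start sites themselves, RefSeq promoters of 300 bases were found for all 8 genes. The Ccr1 promoter held none of the strings. That of Ccr1l1 held RUNX and AP-1, found in 5.27% and 7.81% of the 32851 promoters of the table, and that of Ccr3 held AP-1, NF-kB (0.411%) and GATA (11.2%). The Ccr1l1 promoter lay outside the open region of replicate 1 beside it, and the summit window of that region held none of the strings. Ccr2 held GATA, as did 2 of the 3 overlapping windows of Ccrl2, and Ccr9, Cxcr6 and Xcr1 held none.

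The rest of the pathway was open at its shared signalling genes more than at its receptors and ligands. The CpG class of the genes in these lists was not compared. Of 20 genes that act below the receptors, 16 were open in both replicates (80%, 95% Wilson interval 58.4 to 91.9), beside 39.8% of all genes. This interval too covers counting error alone, for a list chosen with earlier results known, and is no test. Gnai3 (16.5 in replicate 1 and 18.2 in replicate 2) and Gnai2 (12.3 and 14.2), the inhibitory G protein alpha subunits, and Rgs1 (17.4 and 11.1), which speeds their shut-off, had the highest values. Grk2, a kinase that desensitises receptors, had no promoter region.

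Of 15 other chemokine receptor genes, 3 were open in both replicates, or 20% (7.05 to 45.2), beside 39.8% of all protein-coding genes. Here too the interval covers counting error alone and is no test. These were Ccr7 (11.5 and 9.32), known for homing to lymph nodes, Cxcr5 (11.9 and 8.79), known from B cells of follicles, and Cxcr4 (7.06 and 7.54), which holds neutrophils in the marrow. Cxcr2, the main chemokine receptor of neutrophils, had 5.49 in replicate 1 and, in the less strict list alone, 5.18 in replicate 2, and is named outside the rule for genes, after its values were seen. The atypical receptor genes Ackr1, Ackr2 and Ackr3 had no promoter region in the IDR lists, and Ackr3 had one of 4.46 in the less strict list of replicate 1. Set beside the B cell markers above, the open promoters of Ccr7 and Cxcr5 are ones that B cells also use, and the part of B cells was not tested.

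Of 15 ligand genes of the cluster's receptors, Ccl25, the ligand of Ccr9, was the single one open in both replicates, with 14.0 and 16.9. Ccl11, a ligand of Ccr3, and Ccl12 and Ccl2, ligands of Ccr2, had no promoter region. With the less strict lists 4 of the 15 were open in both replicates, beside 49.8% of all protein-coding genes. Of 8 receptors for other attractants, 2 were open in both: Ptafr (14.8 and 11.6), for platelet-activating factor, and C5ar1 (9.96 and 9.54), for complement C5a. The share of all protein-coding genes open in both IDR lists was 39.8%, above that of the ligands and of these receptors. C3ar1, Cmklr1, the signalling receptor for chemerin, and the formyl peptide receptor gene Fpr1 had none in the IDR lists. In the less strict list of replicate 1 they had 6.16, 6.45 and 3.64, and none in that of replicate 2. The median number of distal regions in replicate 1 was 2.5 for the cluster, 4 for the other chemokine receptors, 2 for the ligands, 3 for the signalling genes and 4 for the other attractant receptors. In replicate 2 the medians were 0, 1, 1, 1.5 and 2.5 in the same order, the cluster being lowest.

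**Figure D4:**
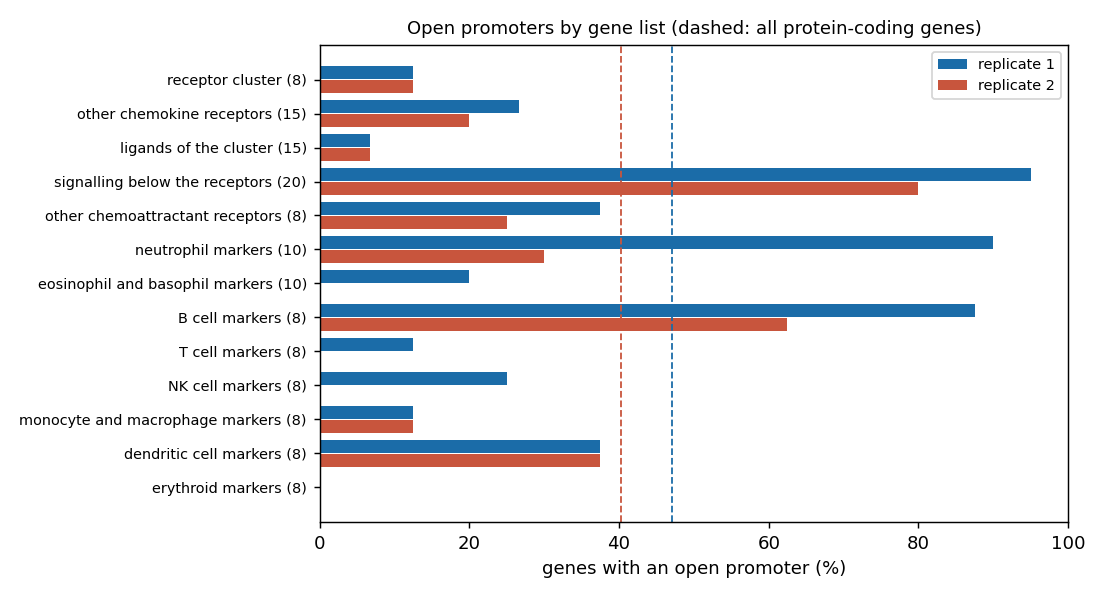
Share of genes with an open promoter (x axis, %) in each gene list (y axis, number of genes in parentheses), for replicate 1 and replicate 2 in the IDR lists, with dashed lines at the share of all protein-coding genes (47.1% and 40.3%). The receptor cluster stands at 12.5% in both replicates and the signalling genes at 95% and 80%.

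The genes most like Ccr1 in these measures were Eif2d, Retreg1 and H2-Ab1. Likeness was the Euclidean distance over promoter signal value and distal count, each as log2 of the value plus 1, in both replicates, and came to 0.20, 0.21 and 0.26. Each of the 3 had 9 distal regions in replicate 1 and 5 in replicate 2. Their promoter signal values were 14.4 and 13.8, 11.8 and 12.5, and 11.8 and 11.7. With 4 measures from 2 libraries this is a description of profile alone.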

How the data were processed

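ATAC-seq peak lists of 2 neutrophil libraries were used, on mm10 (GRCm38) per the labels. The aligner, the caller and any transposase shift were not given in the sources used here. The signal value of each peak is the authors' score, deposited without a definition, and its −log10 p is the authors' deposited value. Per the deposited README files, each replicate has an IDR-thresholded list (main), a less strict pseudoreplicated list and a ranked list with the authors' −log10 IDR, and further lists come from both replicates together. Overlapping peaks were merged, each region keeping its highest signal value. GENCODE M21 start sites were used, and sequences were read from GRCm38.p6; promoter sequences are from RefSeq (GRCm38.p6).

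The members, gene lists and motifs were chosen with earlier results of these data known. All 8 members are named; per related list, the 3 genes with the highest mean signal value among those open in both replicates and up to 3, in alphabetical order, with no promoter region; and the 3 genes nearest to the member with most distal regions. Other genes and some sequences of the interval are not reported here. All 8 members and every listed gene matched the annotation.

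With 1 group of 2 replicates no test was made. Wilson intervals (95%) and ± SD cover counting error and the spread of the 2 libraries. Promoters were CpG-rich from a CpG ratio of 0.6 and a GC content of 50% upward, within 500 bp of the 5'-most start. Copies were searched with BLAST 2.17.0. The counting was tested on simulated data first: 200 of 200 planted promoters and 200 of 200 distal counts were recovered among 21911 genes. Python 3.11.15, pandas 2.3.3, scipy 1.17.1, Biopython 1.88 and samtools 1.23.1 were used. Alternatives were other lists, widths, windows, start sites and overlaps, the stronger peaks, and each replicate alone.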

Additional observations from a re-analysis of the deposited data

How the results depend on the processing

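No paired analysis was possible because there was 1 group. Ccr1 was open in both replicates in the main lists, and the number of open members was 2 with the less strict lists and 2 with RefSeq start sites; it was 1 with the other settings run, each replicate alone included. The count of distal regions followed the list. The mean of 11.5 became 23 with the less strict lists, 4 with peaks at or above the median signal value, 19 with the optimal IDR list, 4.5 with a 20 kb window, and 5 to 18 when one replicate was left out (18 without replicate 2, 5 without replicate 1). The 5 shared regions became 15 with the less strict lists, 1 with the stronger peaks, 14 and 19 with the conservative and optimal lists of both replicates, 1 and 8 with windows of 20 kb and 100 kb, 3 with RefSeq start sites, and 5 to 18 with one replicate left out. With the less strict lists, 5 other chemokine receptors and 4 ligands were open in both replicates, against 3 and 1. The share of all protein-coding genes was 49.8%, against 39.8%. The list or window used sets these counts by its own construction. RefSeq start sites and all alternatives of the related lists were chosen after the data were examined. Depth is unknown, so a region missing from replicate 2 was not detected there, which does not show that it was closed.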

Other observations

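Between the receptor genes, 2 promoter regions of other genes exceeded the Ccr1 promoter in both replicates. At the start of Lztfl1, which encodes a regulator of ciliary trafficking and lies between the GENCODE starts of Ccr9, the signal value was 18.6 in replicate 1 and 18.4 in replicate 2. At the start of Fyco1, an adaptor of autophagosome transport whose gene body holds Cxcr6, it was 16.2 and 19.2. The Ccr1 promoter had 12.99 and 13.35. A region 3989 bp upstream of a Ccr9 start had 9.33 in replicate 1 and, in the less strict list, 6.58 in replicate 2. Its summit was 677 bp from the annotated start of the processed pseudogene Gm17020, so it was not counted as distal. In replicate 1, the regions 15960 bp downstream of the Ccr3 start and 33384 bp upstream of a Ccr2 start had the same signal value, 9.52, to the last deposited digit. They also shared a −log10 p of 25.6. Such ties were not particular to this pair: the Cxcr6 distal region and the promoter of an NK cell marker gene both had 8.40 in replicate 1.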
